A study of Mus musculus with 2 samples.

Results

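The insulin-like growth factor (IGF) axis was described here through 10 of its genes: the ligands Igf1 and Igf2, the receptors Igf1r and Igf2r, and the binding protein genes Igfbp2, Igfbp3, Igfbp4, Igfbp5, Igfbp6 and Igfbp7. The genes were chosen by name, with earlier results of these data known, and every probe set annotated to one of them was taken. This gave 23 probe sets, each naming 1 gene, where the array as a whole resolves 12393 genes. RNA came from mouse uterus on day 8 of pregnancy, from the wall between implantation sites. The control group and the group lacking Cbs, the gene of cystathionine beta-synthase, were each represented by 1 array. Both groups were females aged 4 months on a C57Bl/6J X OLA129 background. The Cbs null females were homozygous for the deficiency, and the labels do not say which part of the gene was altered, which genotype the control females had, or how many animals a sample held.

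IGF1 and IGF2 are secreted peptides related to insulin that promote growth and survival of cells. Both act through the IGF1 receptor, a tyrosine kinase, whereas the IGF2 receptor takes up IGF2 and carries it to lysosomes. The binding proteins hold IGFs in tissue fluid and release them when cleaved by proteases, and in the uterus IGF1 from stromal cells is known to take part in the response of the epithelium to estrogen.

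Of the 10 genes, Igfbp2 alone differed at least 2-fold between the samples. It read 427.9 signal units in control uterus and 26.3 in Cbs null uterus, at least 9.91-fold lower. The other 9 genes were above the floor of 43.2 units in both samples, and their log2 ratios of Cbs null over control lay between -0.38 for Igfbp6 and 0.39 for Igf1r. By the brightest probe set, both ligands and 4 of the remaining 5 binding protein genes were slightly lower in Cbs null uterus. Both receptors and Igfbp4 were slightly higher. The sign for Igfbp7, counted as lower, depended on how its probe sets were combined. The floor is the 40th percentile of both arrays together, below which weak signals were not ordered. A fold against a value below it is a lower bound. With 1 array per group no test was possible, so no difference has a replicate check and no p-value is given.

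Across all 8408 genes above the floor in at least 1 sample, 60 genes, or 0.714%, were at least 2-fold lower in Cbs null uterus and 67 genes, or 0.797%, at least 2-fold higher. Against these shares stand 1 of the 10 IGF genes at least 2-fold lower and 0 at least 2-fold higher. The set was chosen with earlier results of these data known, so 1 of 10 is a description and cannot be read as an excess. Over the 9 genes above the floor in both samples, the median log2 ratio was -0.18, beside 0.02 for all 7942 such genes. The SD of these ratios was 0.25 for the 9 IGF genes and 0.32 for all genes. On the same arrays, 2757 genes with several usable probe sets gave an SD of 0.22 for a log2 ratio. That SD is the disagreement between probe sets of the same gene. It leaves out the spread between animals and any error that the probe sets of a gene share.

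**Figure D1:**
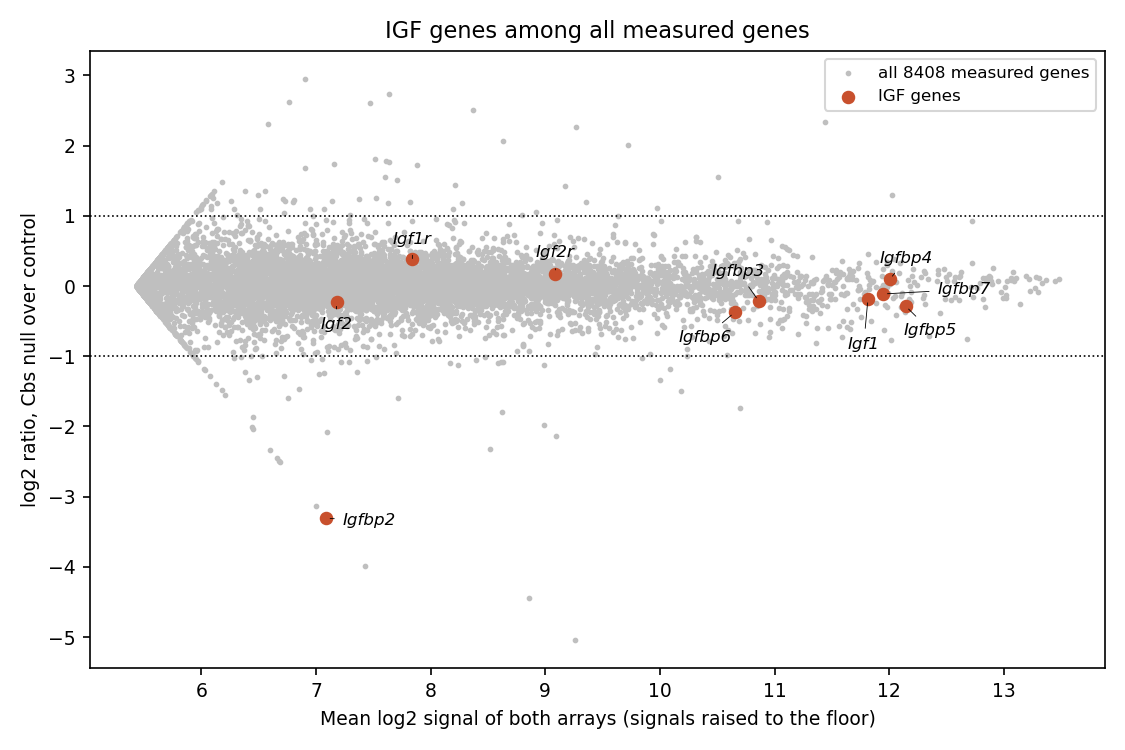
Each gray point is 1 of 8408 measured genes, plotted as the log2 ratio of Cbs null over control against the mean log2 signal of both arrays, with signals raised to the floor. Orange points are the 10 IGF genes and dotted lines mark 2-fold. Igfbp2 lies at -3.31, and the other 9 genes lie inside the body of the plot.

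The overall signal of the arrays was alike, with medians of 74.55 and 75.6 and 18 hybridisation spikes with log2 ratios from -0.29 to 0.09. The brighter Cbs probe set read 79.8 in control uterus and 42.6 in Cbs null uterus, at least 1.85-fold lower. This bound is under 2-fold and the signals are close to the floor. The other Cbs probe set read 39.8 and 25.1, below the floor in both samples. Tissue markers were above the floor, with 8 of 8 smooth muscle markers and 9 of 9 stromal markers in both samples. All 8 epithelial markers were above it in Cbs null uterus, and Cldn4 was below it in control uterus. The 4 trophoblast and embryo markers on the array were all below the floor in both.

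Igf1, the growth factor that acts locally in many tissues as well as through the blood, had 3 probe sets. The brightest read 3833.7 in control uterus and 3384.1 in Cbs null uterus, a log2 ratio of -0.18. The next read 1093.3 and 929.1 (log2 ratio -0.23), and the last read 1056.3 and 848.1 (-0.32). All 3 probe sets were lower in Cbs null uterus, with changes of -11.7%, -15.0% and -19.7% against control, and the SD among their log2 ratios was 0.07. The array annotation gives them 3 different target accessions. A difference as large as that of the brightest probe set, in either direction, was seen in 45.3% of genes above the floor in both samples, so Igf1 did not stand apart from genes in general.

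Igf2, an imprinted gene expressed from the paternal copy in most tissues, read 157.0 in control uterus and 133.8 in Cbs null uterus in its brighter probe set. That is a log2 ratio of -0.23, and 35.4% of genes differed by at least as much. The other Igf2 probe set read 6.5 and 1.3, below the floor in both samples, so it has no ratio. H19, the maternally expressed RNA gene near Igf2, is measured by a probe set shared with the microRNA gene Mir675, whose sequence lies within H19. It read 138.8 and 141.6, a log2 ratio of 0.03. Ins2, which follows Igf2 in the order of protein-coding genes, read 14.3 and 15.3, and the antisense RNA gene Igf2os, picked out after its values were seen, read 19.1 and 9.2. Neither of these reached the floor on either array.

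The receptor genes were higher in Cbs null uterus. Igf1r, which encodes the tyrosine kinase receptor through which IGF1 signals, read 200.2 in control uterus and 262.5 in Cbs null uterus, 31.1% higher. This log2 ratio of 0.39 was the highest of the 10 genes, and 15.5% of all genes above the floor in both samples differed by at least as much. It rested on 1 probe set, because the other read 26.7 and 27.7, below the floor. Both Igf1r probe sets carry the same target accession.

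Igf2r encodes the receptor that clears IGF2 and also sorts lysosomal enzymes tagged with mannose 6-phosphate. Its brighter probe set read 513.0 in control uterus and 577.3 in Cbs null uterus, a log2 ratio of 0.17. The other read 174.1 and 177.4, a log2 ratio of 0.03. The SD between probe sets of 1 gene was 0.17 among bright probe sets such as these and 0.22 over all, so the larger ratio is about the size of that spread.

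**Figure D2:**
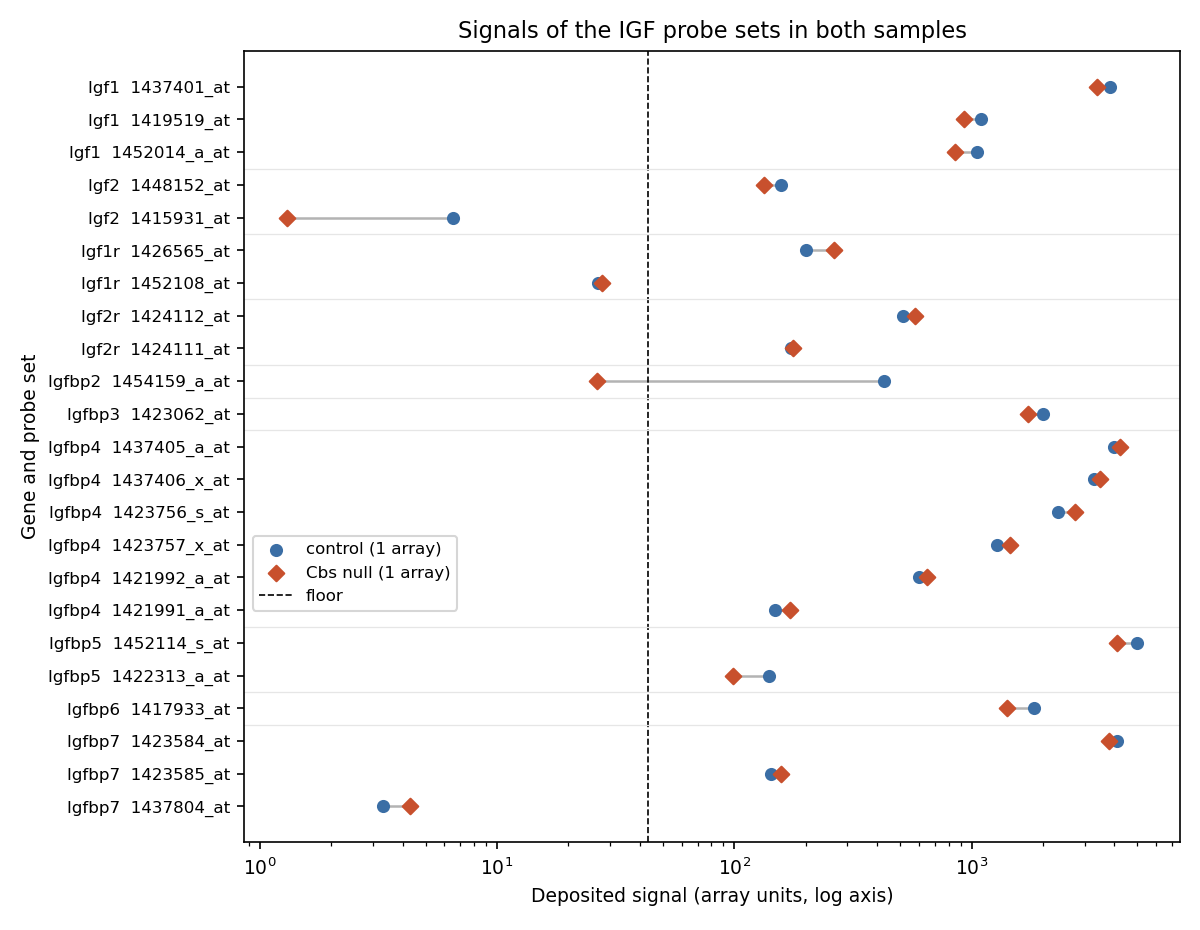
Deposited signals of the 23 IGF probe sets on a log axis, with blue circles for the control array, red diamonds for the Cbs null array and a dashed line at the floor of 43.2 units. Signals of different probe sets are not comparable with each other, only the points of 1 row. Igfbp2 crosses the floor, from 427.9 in control uterus to 26.3 in Cbs null uterus, and 3 probe sets lie below the floor in both samples.

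Igfbp2 encodes a binding protein that holds both IGFs and also binds integrins at the cell surface. It has 1 probe set on the array, which was bright in control uterus at 427.9 and below the floor in Cbs null uterus at 26.3. Its log2 ratio against the floor, -3.31, was the fifth lowest of the 8408 measured genes. The genes with a lower ratio, picked out after their values were seen, were A2m at -5.04, Tac2 at -4.44, Tdo2 at -3.99 and Mt4 at -3.34. Bounds cannot be ordered against each other, so this rank holds only for signals raised to the floor. No other probe set was there to check the value.

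Markers of other cell types also differed between these samples. In bulk tissue, fewer cells of a type and less RNA per cell cannot be told apart. The marker lists were chosen with earlier results of these data known, so their counts are a description only. Of 6 decidual markers, 3 were at least 2-fold lower in Cbs null uterus, beside 0.714% of all measured genes. The decidual prolactin gene Prl8a2 read 424.4 and 5.8, the tryptophan dioxygenase gene Tdo2 read 685.3 and 27.4, and the activin antagonist gene Fst read 1011.7 and 256.2. The other 3 decidual markers did not reach 2-fold, with Gja1 at -0.27, the bone morphogenetic protein gene Bmp2 at 0.02 and Wnt4 at 0.48. The summed signal of the decidual list was 5342.2 in control uterus and 3026.8 in Cbs null uterus. Gja1 alone read 2993.0 and 2478.6 of these. Such sums, here and below, are led by the brightest probe sets of a list. None of the decidual markers was listed at 0, and Prl8a2 and Tdo2 were below the floor in Cbs null uterus. Uterine natural killer markers summed to 1000.7 and 266.4, with 4 of the 7 on the array at least 2-fold lower, all of them granzymes, and none at 0. The other natural killer markers did not reach 2-fold, with the perforin gene Prf1 at -0.22 and the receptor gene Klrd1 at -0.11, and Ncr1 was below the floor on both arrays, so the difference between the sums lies in the granzymes. The part of these cells in the Igfbp2 value was not tested.

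Other markers differed less and some in the other direction. All 8 smooth muscle markers were lower, with a median log2 ratio of -0.57 and summed signals of 34212.5 and 27032.1, and 0 of them reached 2-fold. Of 8 epithelial markers, Cldn3 reached 2-fold with a log2 ratio of 1.05, and the sums were 3294.1 and 5221.7. Macrophage markers summed to 1787.0 and 2766.5, with a median of 0.58 over the 5 of 6 that were above the floor. The 9 stromal markers had a median of 0.11 with sums of 37863.9 and 36287.0, the 6 endothelial markers a median of 0.03, and the 3 mesothelial markers on the array a median of -0.26. Beside them, Igfbp3, Igfbp4, Igfbp5, Igfbp6, Igfbp7 and Igf1 all lay between -0.38 and 0.09. The part of shifts in smooth muscle, epithelium or macrophages in these smaller ratios was not tested.

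**Figure D3:**
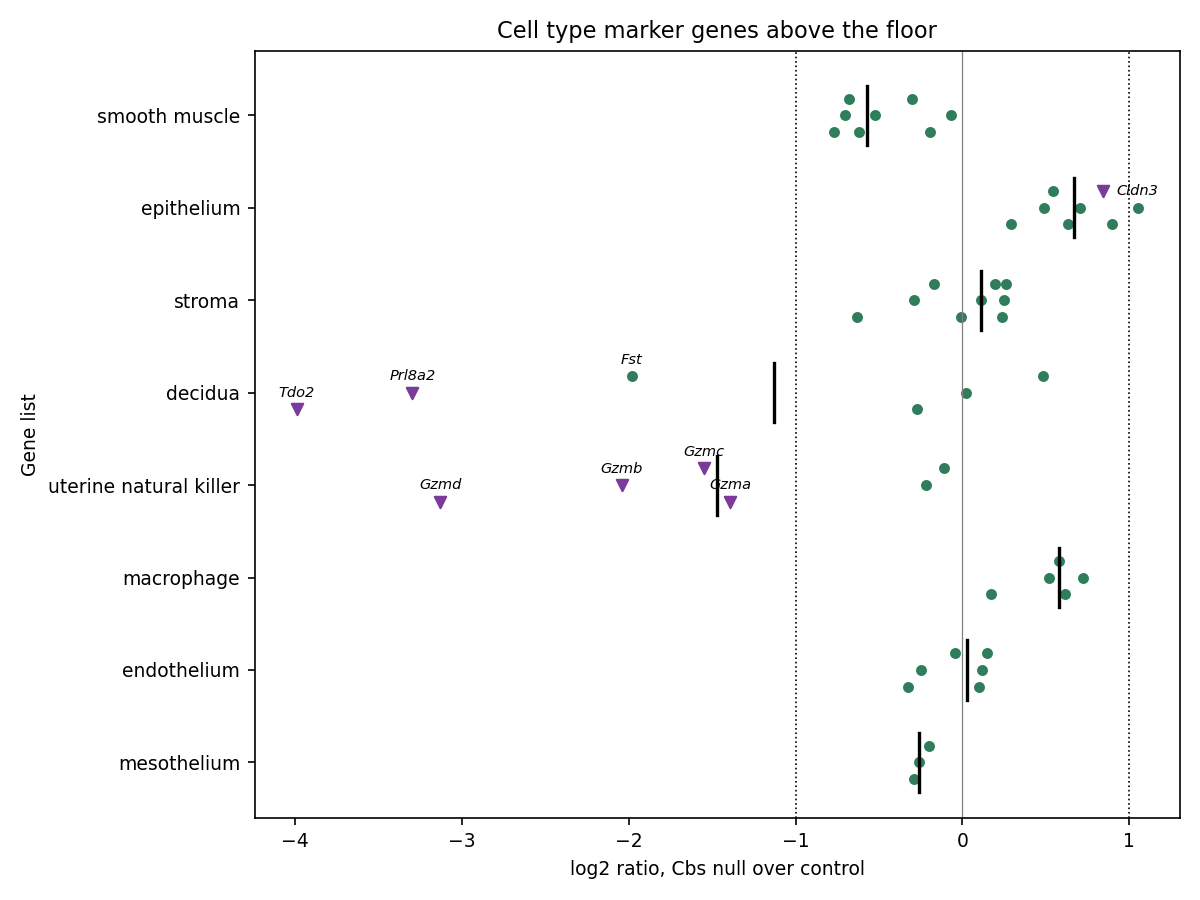
Log2 ratios of Cbs null over control for cell type markers above the floor in at least 1 sample, with 1 point per gene and a black bar at each list's median. Purple triangles are bounds for genes below the floor in 1 sample, and dotted lines mark 2-fold. The lists were chosen with earlier results of these data known. Decidual and natural killer markers reach the lowest ratios (Tdo2 at -3.99, Gzmd at -3.13), and epithelial and macrophage markers lie above 0.

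In the mouse genome Igfbp2 and Igfbp5 are neighbours with no protein-coding gene between them, and they point towards each other. The stretches before their start sites are shown for description, and no link between their letters and the array values was tested. Sequences are from RefSeq (GRCm38.p6), 250 bases up to the annotated start, 5′ to 3′ on the strand of the gene. Igfbp2 is on the plus strand at chr1:72824230-72824479, and Igfbp5 on the minus strand at chr1:72874866-72875115. Capitals mark matches, on either strand, to the TATA box (TATAAA), the GC box (GGGCGG), the E-box (CACGTG), the CCAAT box and the hexamer AGAACA.
Igfbp2: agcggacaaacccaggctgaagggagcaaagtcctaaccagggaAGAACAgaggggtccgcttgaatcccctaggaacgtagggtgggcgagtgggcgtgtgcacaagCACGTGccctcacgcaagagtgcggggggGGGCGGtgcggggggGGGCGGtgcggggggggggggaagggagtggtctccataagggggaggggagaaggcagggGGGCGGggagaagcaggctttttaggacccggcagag
Igfbp5: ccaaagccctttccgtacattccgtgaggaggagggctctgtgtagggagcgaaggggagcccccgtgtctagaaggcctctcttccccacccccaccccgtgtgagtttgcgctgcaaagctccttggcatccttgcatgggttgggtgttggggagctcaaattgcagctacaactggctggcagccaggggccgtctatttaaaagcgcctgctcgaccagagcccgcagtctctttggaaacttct
The Igfbp2 stretch holds 3 GC boxes, starting 37, 98 and 113 bases before the start site, 1 E-box 142 bases before it and 1 AGAACA 206 bases before it, with no overlap between them. The last is part of the element that progesterone and glucocorticoid receptors recognise. The Igfbp5 stretch holds 0 of the 5 motifs. Among 32851 such windows before mouse genes, 32.7% hold a GC box, 6.02% the E-box and 16.1% AGAACA. Of the 14 windows of the IGF genes, 6 hold a GC box, 2 the E-box and 2 AGAACA. The Igf2r window holds 3 GC boxes and 2 E-boxes, the Igfbp7 window 4 GC boxes, and 1 Igf2 window AGAACA. RefSeq lists another Igfbp2 start site further downstream, whose window holds none of the motifs, and the array does not show which start is used. A match describes the letters and is not a measured binding site.

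Across all 10 genes there were 14 start sites, because Igf2 has 4 and Igfbp2 has 2. The number of CpG dinucleotides in the 250 bases ranged from 1 before an Igf2 start to 42 before Igf1r, where the median over all windows was 6. The first Igfbp2 window had 14, Igfbp5 had 10, Igf1 had 5, Igfbp6 had 7, Igfbp4 had 22, Igfbp7 had 26, Igf2r had 27 and Igfbp3 had 32. How these counts relate to the array ratios was not tested. TATAAA was found before Igfbp4 and Igfbp6 and in 12.4% of all windows, and CCAAT in 3 of the 14 windows and 33.8% of all.

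Igfbp5, which encodes a binding protein retained in extracellular matrix, had 2 probe sets. The brighter read 4996.2 in control uterus and 4095.3 in Cbs null uterus, a log2 ratio of -0.29. The other read 139.4 and 98.4, 1.42-fold lower, a log2 ratio of -0.50 that was the lowest of the IGF probe sets above the floor on both arrays. Both went the same way, and neither reached 2-fold. The brighter has the suffix _s_at, which marks probes that can match more than 1 transcript. Of the other protein-coding neighbours of Igfbp2, Rpl37a was at 0.09, Smarcal1 at -0.47 and Tns1 at -0.10, while Tnp1 was below the floor. None of these neighbours reached 2-fold, a size met by 0.714% of measured genes downward and 0.797% upward.

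Igfbp3, the main carrier of IGFs in blood, read 2007.5 in control uterus and 1727.8 in Cbs null uterus, a log2 ratio of -0.22 from its only probe set. Igfbp1, which lies next to Igfbp3 and is a product of the human decidua, read 11.8 and 38.0, both below the floor. Igfbp6, a binding protein with a preference for IGF2, read 1831.9 and 1410.7 in its only probe set, a change of -23.0%. This log2 ratio of -0.38 was the lowest among the 9 genes above the floor in both samples, and 16.4% of all genes differed by at least as much.

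Igfbp4, which restrains IGF action until the protease pappalysin cleaves it, was the most often measured member. Its 6 probe sets read 3978.8, 3292.5, 2320.9, 1275.5, 601.9 and 148.2 in control uterus and, in the same order, 4246.3, 3466.1, 2726.2, 1454.4, 651.5 and 171.3 in Cbs null uterus. All 6 were slightly higher in Cbs null uterus, with log2 ratios from 0.07 to 0.23 and an SD of 0.07 among them. They carry 3 target accessions between them, so they are not 6 independent measurements. The brightest had a ratio of 0.09, and 68.6% of all genes differed by at least as much.

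Igfbp7 encodes a matrix and vessel-associated protein that binds IGFs weakly. Its brightest probe set read 4110.0 in control uterus and 3799.7 in Cbs null uterus, a log2 ratio of -0.11. Another read 142.4 and 157.6, a log2 ratio of 0.15, and the last read 3.3 and 4.3, below the floor. The probe sets of Igfbp7 disagreed in sign, and its direction flips with the way they are combined (0.02 for their mean). The other 9 genes kept their sign under every setting tried.

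**Figure D4:**
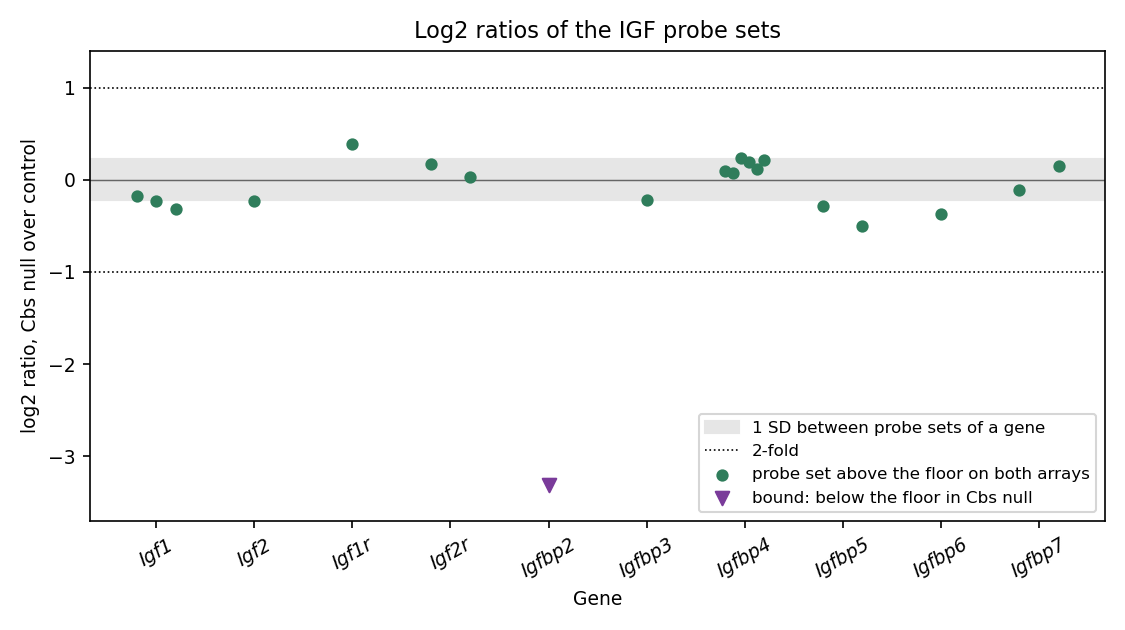
Log2 ratio of Cbs null over control for each IGF probe set above the floor in at least 1 sample, by gene. The gray band is 1 SD (0.22) between probe sets of the same gene on these arrays, and dotted lines mark 2-fold. All probe sets but that of Igfbp2, a bound at -3.31, lie between -0.50 and 0.39.

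Of the 23 probe sets, 19 were above the floor on both arrays, 9 of them lower and 10 higher in Cbs null uterus. The remainder were Igfbp2, above it in control uterus, and 3 below it in both samples. Counted by gene the split was 6 lower and 3 higher, and the difference between the counts comes from the 6 probe sets of Igfbp4.

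Genes that act on or after the IGFs were taken from 6 lists of 115 genes, of which 95 had a probe set of their own and 72 were above the floor in both samples. Of these, 35 were higher and 37 lower in Cbs null uterus, 2 of them at least 2-fold lower and 0 at least 2-fold higher, beside 0.714% and 0.797% of all measured genes. The median log2 ratio of the 72 genes was -0.01, beside 0.02 for all genes above the floor in both samples.

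The list of proteases that cleave binding proteins, with their inhibitors, held both genes that reached 2-fold. Timp1, an inhibitor of metalloproteinases, read 191.5 in control uterus and 69.3 in Cbs null uterus, 2.76-fold lower. Mmp7, the epithelial metalloproteinase matrilysin, read 572.0 and 269.0, 2.13-fold lower. The other 13 of the 15 genes above the floor did not reach 2-fold, among them Pappa, the pappalysin gene, at 0.40 and the matrix protease gene Htra1 at -0.23. Pappa was close to the floor, at 55.4 and 73.3. The highest of the 15 was Ctsd, the cathepsin D gene, which read 1051.5 and 1622.6, a log2 ratio of 0.63. Timp1 and Mmp7 had 1 probe set each. With the floor at the 60th percentile Timp1 no longer passed 2-fold, and with a pseudocount in place of the floor Mmp7 no longer passed.

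Insulin and IGF signalling genes differed little, as did genes in general, of which 0.714% were at least 2-fold lower and 0.797% at least 2-fold higher. Of 47 genes written, 36 were on the array with a probe set of their own and 30 were above the floor in both samples, 16 higher and 14 lower, none at least 2-fold. Their log2 ratios ran from -0.27 to 0.42 with a median of 0.04. The signalling inhibitor gene Socs3 was highest, and its 3 probe sets gave log2 ratios of 0.27, 0.42 and 0.44. The adaptor gene Grb14 read 59.1 and 78.3, a log2 ratio of 0.41 close to the floor. Irs1, the docking protein that the activated IGF1 receptor phosphorylates, read 1028.0 and 867.3 (log2 ratio -0.25), and the kinase gene Akt1 was at -0.01. The insulin receptor gene Insr was below the floor in both samples in each of its probe sets.

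In the growth hormone axis, through which growth hormone raises Igf1 in liver, 7 of the 10 genes on the array were above the floor, 4 higher and 3 lower. Socs2, a feedback inhibitor of growth hormone signalling, read 972.6 and 804.0 (log2 ratio -0.27), and the kinase gene Jak2 read 648.4 and 764.9 (0.24). The growth hormone receptor gene Ghr was at -0.10 in its brightest probe set. Of the 11 genes of mannose 6-phosphate sorting, the route that Igf2r serves, 4 were higher and 7 lower, with a median of -0.11. The sorting adaptor genes Gga1 and Gga2 were lowest, at -0.37 and -0.31, and M6pr, the gene of the other mannose 6-phosphate receptor, was at 0.03.

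**Figure D5:**
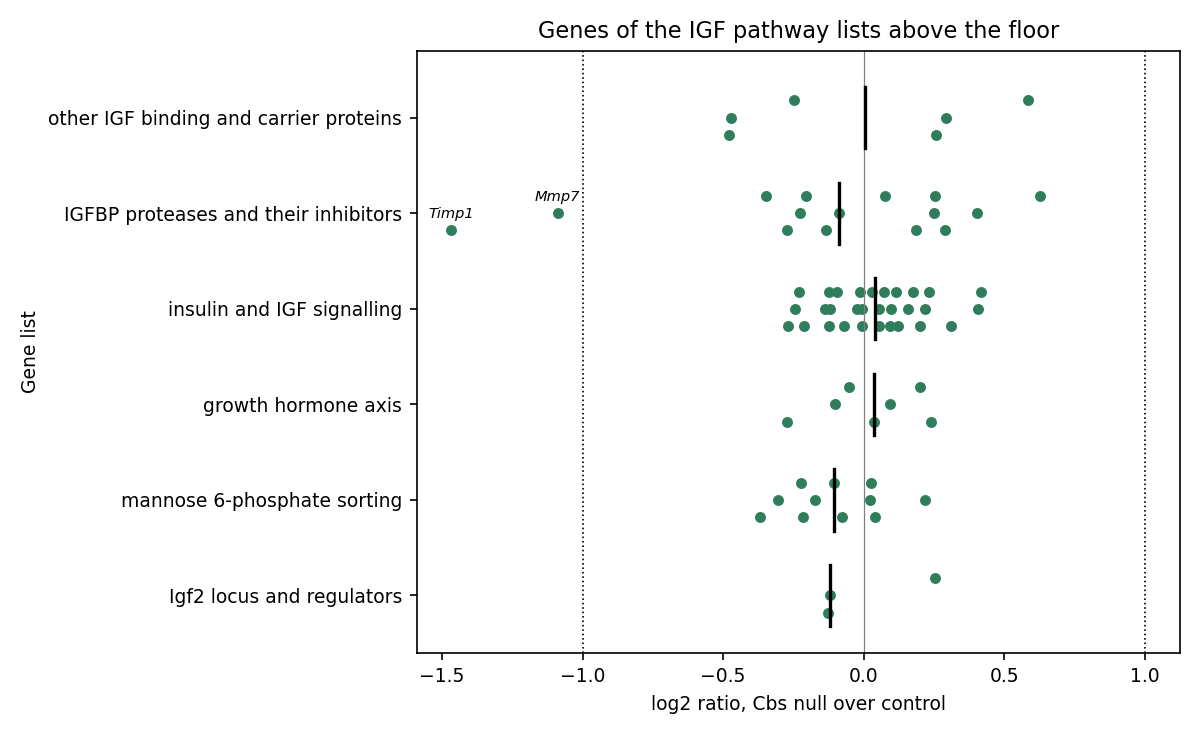
Log2 ratios of Cbs null over control for the 72 genes of the 6 pathway lists above the floor, with 1 point per gene and a black bar at each list's median. Dotted lines mark 2-fold. Timp1 (-1.47) and Mmp7 (-1.09) are the genes beyond 2-fold, and all others lie between -0.48 and 0.63.

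Among other binding and carrier proteins, 6 of the 13 genes on the array were above the floor, 3 higher and 3 lower. The matricellular genes Ccn3 and Ccn1, whose proteins share a domain with the IGF binding proteins, differed most. Ccn3 read 108.9 and 163.1, and its probe sets gave log2 ratios of 0.58 and 0.94. Ccn1 read 298.2 and 213.9, with ratios of -0.48 and -0.62. Igfals, the gene of the subunit that completes the circulating IGF complex, and the genes of the Igf2 mRNA-binding proteins Igf2bp1 and Igf2bp3 did not reach the floor on either array. Of genes linked to the Igf2 locus, 3 of 8 on the array were above the floor, with Plagl1, an imprinted transcription factor gene, at -0.13, Ctcf, whose protein insulates the locus, at -0.12 and Hmga2 at 0.25. The median of these 3 genes, -0.12, turned to 0.56 without _s_at and _x_at probe sets, where Plagl1 drops out and Hmga2 is represented by another probe set that is at least 2.36-fold higher, and to 0.15 with the mean over probe sets.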

How the data were processed

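Biotin-labelled cRNA from 2 microg of total RNA was hybridised to Affymetrix arrays, per the labels' protocols, with 1 array for control and 1 for Cbs null. The authors deposited 1 linear intensity per probe set and array. The software GCOS 1.4 appears in the submitters' processing notes. The sources used here do not state how probes were summarised, the scaling target or detection calls. The 2% trimmed means, 200.08 and 200.07, show that both arrays were on 1 scale, so values were used as deposited, and each difference is relative to the whole array.

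Of 22626 probe sets that are not array controls, 20380 had 1 gene symbol in the platform annotation, 691 several and 1555 none. Identifiers of 20351 matched the mouse RefSeq table (GRCm38.p6), which changed no symbol and served for names and gene order. A gene was represented by its probe set of highest mean log2 signal. Intensities under 43.2, the 40th percentile, were raised to that floor before taking log2 ratios. A size rule of 2-fold was used. It was tested on simulated data, where changes larger than 2-fold were put into bright genes under noise smaller than the spread here. That run cannot show how the rule performs near the floor or on these unreplicated arrays. The number of arrays limits the precision. All 10 genes were named by rule, and from each pathway list the members at least 2-fold apart or else the 2 with the largest ratios. Any other gene named is a list member or was chosen after its values were seen. Members and lists were chosen with earlier results of these data known. Alternatives were median centring, floors at the 20th and the 60th percentile, quantile normalization, a pseudocount of 43.2, the mean over probe sets, leaving out _s_at and _x_at probe sets, and thresholds of 1.5-fold and 3-fold. Python 3.11.15, pandas 2.3.3 and numpy 2.4.6 were used.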

Additional observations from a re-analysis of the deposited data

How the results depend on the processing

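Igfbp2 was the 1 IGF gene past the threshold, and 0 were higher past it, under all 9 alternatives. The median log2 ratio over all 10 measured IGF genes, with the Igfbp2 bound, was -0.20 in the main setting. It lay between -0.22 and -0.18 under the 7 alternatives that keep the 2-fold threshold. The median of -0.18 given earlier is over the 9 genes above the floor in both samples. The size of the Igfbp2 difference depends on the floor, with a log2 ratio of -4.02 (16.3-fold) at the 20th percentile, -1.83 (at least 3.56-fold) at the 60th and -2.76 with the pseudocount. Igfbp7 changed sign when its probe sets were averaged, at 0.02, and the other 9 genes kept their sign throughout. Over all genes, the number higher was 242 with the floor at the 20th percentile, 30 at the 60th, 35 with the pseudocount, 305 at 1.5-fold and 16 at 3-fold, against 67. The number lower was 214, 31, 34, 287 and 22 in the same order, against 60. Of the 2 protease list genes at least 2-fold lower, Timp1 no longer passed with the floor at the 60th percentile, Mmp7 no longer passed with the pseudocount, and 0 passed 3-fold. At 1.5-fold, 1 gene of that list, Ctsd, passed as higher. Among 150 alternative values for the pathway lists, 11 moved. The Igf2 locus list gained 1 gene at least 2-fold higher, Hmga2, without _s_at and _x_at probe sets, where its median turned from -0.12 to 0.56, and the mean over probe sets gave 0.15. At the 20th percentile floor, the list of other binding and carrier proteins gained Igfbp1 as at least 2-fold higher, and its median turned to -0.25. The signalling list gained Irs2 at the same floor. Igfbp1 read 11.8 in control uterus and 38.0 in Cbs null uterus, and Irs2 read 8.5 and 39.8. No replicate could be left out, since each group has 1 array. No paired analysis was possible because each group has 1 array.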

Other observations

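Hmga2, a chromatin protein gene linked to Igf2, gave unequal values in its 3 probe sets. The brightest read 68.6 in control uterus and 81.8 in Cbs null uterus. Another read 36.2 and 101.9, at least 2.36-fold higher, and the last read 26.4 and 46.7. All 3 were higher in Cbs null uterus, but all are close to the floor. The gene was picked out after its values were seen.

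The protein-coding genes that flank the IGF genes, 3 on each side, were also read. Of 54 such neighbours, 30 had a probe set of their own and 19 were above the floor in both samples. Their log2 ratios ran from -0.47 for Smarcal1 to 0.54 for Ttc23, and 0 of these 19 reached 2-fold. Of all measured genes, 0.714% were at least 2-fold lower and 0.797% at least 2-fold higher. With shares so small, 0 of 19 does not set the neighbours apart from genes in general.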
